A study of Mus musculus with 12 samples.

Results

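Bone marrow macrophages (BMMs) that lack miR-182 in the myeloid lineage were compared with wild-type BMMs after both had been driven toward osteoclasts with RANKL, the cytokine that starts osteoclast differentiation. The comparison used 4 of the 12 RNA-seq libraries of the series, chosen by their labels: 2 Mir182ΔM/ΔM RANKL libraries and 2 WT RANKL libraries. The WT group had the stated genotype Mir182+/+LysMcre(+) and the deleted group Mir182flox/floxLysMcre(+). By these genotypes both groups carried the LysMcre allele, a Cre recombinase gene placed in the lysozyme gene Lyz2 that is active in myeloid cells. The Lyz2 levels given below differ widely between the groups, and whether the groups were matched at this allele was not tested. All mice were labelled C57BL/6, marrow from femur and tibia was grown for 3 days in M-CSF, and RANKL was then given for 5 days. The ages of the mice were not given in the sources used here. The study used littermates matched for age and sex. The same 2 genotypes without RANKL (Basal, 4 libraries) are set beside the main comparison below. The values were reads on a gene per 1000000 reads on all genes (CPM), and the 4 RANKL libraries held 25058985 to 30445668 reads on genes, at which 3 reads correspond to at most 0.12 CPM.

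A miRNA is a short RNA that lowers the level or the translation of the messenger RNAs it pairs with, mainly through its seed, the bases near its 5′ end. When RANKL acts on a BMM, the cell leaves the cell cycle over several days, fuses with its neighbours, builds many mitochondria and inserts proton pumps into the membrane facing bone. The products of Mir182, the gene deleted here, are shown because they are the only molecules the 2 genotypes differ in by design. Both come from the minus strand of chromosome 6 (RefSeq, GRCm38.p6), miR-182-5p from chr6:30165962-30165986 and miR-182-3p from chr6:30165923-30165943, and the capitals mark the seed (bases 2 to 8).
miR-182-5p: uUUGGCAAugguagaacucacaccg
miR-182-3p: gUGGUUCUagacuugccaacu

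These libraries cannot check the deletion itself, because the Mir182 row was at 0 CPM in all 4 RANKL libraries. Lyz2, which encodes lysozyme M, and Ifi202b, an interferon-inducible gene of the DNA-sensing family, set the WT RANKL libraries apart from the other libraries of this experiment. Lyz2 read 4117 and 4288 CPM in WT RANKL, but 44.0 and 39.8 CPM in WT Basal, 34.6 and 31.2 CPM in Mir182ΔM/ΔM Basal and 24.0 and 22.5 CPM in Mir182ΔM/ΔM RANKL. Ifi202b read 1.12 and 0.972 CPM in WT RANKL, against 112 and 93.4 CPM in WT Basal, 101 and 82.1 CPM in Mir182ΔM/ΔM Basal and 152 and 143 CPM in Mir182ΔM/ΔM RANKL. In both genes the WT RANKL libraries lay close to the Control Basal libraries of the separate overexpression experiment, in which Lyz2 read 5783 and 6615 CPM and Ifi202b 0 and 0 CPM. WT RANKL and WT Basal carry the same genotype label, so any difference between the mice or cultures behind the WT RANKL libraries and those behind the others cannot be told apart from the effect of genotype after RANKL. This holds for every result below. Eif2ak2, which encodes the double-stranded RNA kinase PKR, read 90.0 and 80.5 CPM in WT RANKL and 255 and 246 CPM in Mir182ΔM/ΔM RANKL.

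**Figure D1:**
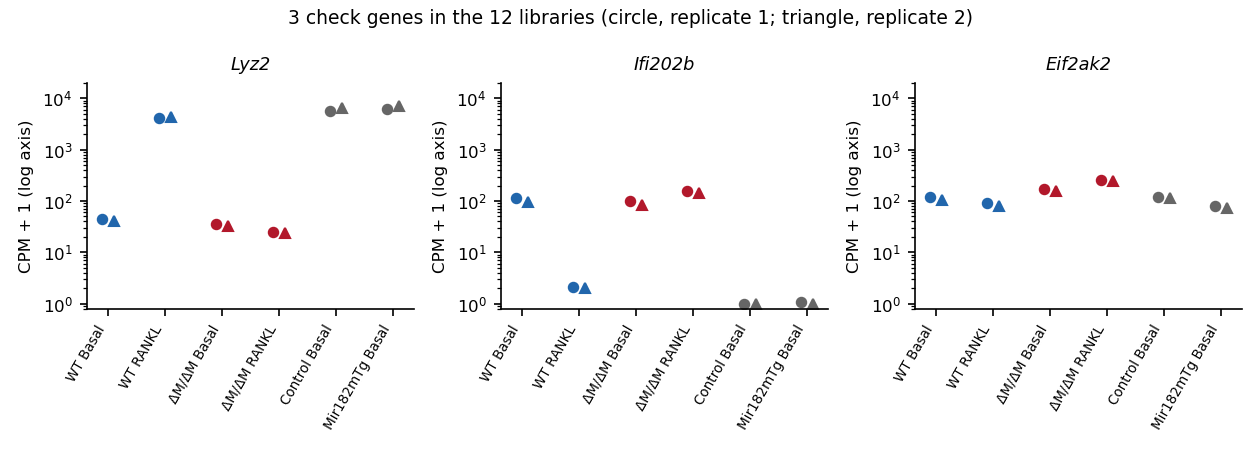
CPM plus 1 on a log axis for Lyz2, Ifi202b and Eif2ak2 in the 12 libraries, by group. The WT RANKL libraries sit with the Control and Mir182mTg libraries for Lyz2 and Ifi202b, and the WT Basal libraries sit with the Mir182ΔM/ΔM libraries.

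Of 24394 genes, 11415 reached 1 CPM in at least 2 of the 4 libraries and were tested with limma on log2(CPM + 1), with the replicate number as a block, and a gene was called where its adjusted p was under 0.05. In Mir182ΔM/ΔM, 2709 genes (23.7% of those tested) were higher and 5718 (50.1%) lower. With a change of at least 1.5-fold besides, 859 (7.53%) were higher and 1786 (15.6%) lower. These shares depend on the scaling: the median log2 fold change of all genes was -0.14 on CPM, and dividing by trimmed mean (TMM) factors raised every value by about that much, which gave 4054 genes higher (35.5%) and 3881 lower (34.0%). A member's count is therefore read against those shares, and a list's median against -0.14. Without the block 1459 genes were higher and 3115 lower. The block left 1 residual degree of freedom per gene, and the fit took each gene's variance from the trend over genes, so its p-values do not rest on a gene's own spread. The adjusted p-values printed below for single genes are therefore those of the limma fit without the block, with 2 samples a group. The standard errors (SE) printed beside the fold changes come from the fit with the block and share its limit, so they describe the trend over genes and do not match those p-values.

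Mitotic genes were higher in Mir182ΔM/ΔM after RANKL. Of 48 genes of spindle, kinetochore and cytokinesis, 44 were higher and 2 lower, 11 of them higher by at least 1.5-fold, with a median log2 fold change of 0.46 (0.62 with TMM factors). Anln encodes anillin, the scaffold of the cleavage furrow, and read 187 and 169 CPM in WT and 328 and 309 CPM in Mir182ΔM/ΔM, a log2 fold change of 0.84 ± 0.039 (SE, limma adjusted p = 0.0012). Pttg1 encodes securin, which holds back chromatid separation, and went from 15.1 and 16.6 CPM to 27.9 and 29.1 CPM. Spc25, a subunit of the kinetochore complex that binds microtubules, read 32.0 and 32.1 CPM in WT and 52.2 and 51.0 CPM in Mir182ΔM/ΔM. For these 3 genes both Mir182ΔM/ΔM libraries lay above both WT libraries. They were named for the largest increases of the list, which makes such a separation likely. The proliferation marker Mki67 moved little: it read 1017 and 790.2 CPM in WT and 1135 and 938 CPM in Mir182ΔM/ΔM, the groups overlapped although each replicate was higher than the WT library of its number, and the log2 fold change of 0.20 ± 0.034 was not called without the block (limma adjusted p = 0.33). Bub1b, a kinase of the spindle checkpoint, was the exception in direction, with 209.6 and 213 CPM in WT and 167 and 172 CPM in Mir182ΔM/ΔM (-0.32 ± 0.04, limma adjusted p = 0.02). The other lower gene, the B-type cyclin Ccnb2, had a log2 fold change of -0.096 on CPM and 0.057 with TMM factors, so its direction depends on the scaling. In bulk libraries such as these, more cells in cycle and more of each transcript per cycling cell cannot be told apart.

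Genes of DNA replication and of the passage from G1 to S phase moved the same way. None of the 53 members was lower and 43 were higher, with a median of 0.33 (0.48 with TMM factors). Mcm10, a DNA replication factor, read 59.9 and 64.7 CPM in WT and 112 and 118 CPM in Mir182ΔM/ΔM (0.88 ± 0.048, limma adjusted p = 9.8e-04). Pcna, the sliding clamp of DNA polymerase, read 139.8 and 146 CPM and 244 and 250.2 CPM. Both genes were separated by more than the spread of the replicates, which their choice as the largest increases makes likely. Among 22 genes of homologous recombination and the DNA damage checkpoint, 20 were higher and 1 lower. The helicase gene Blm went from 25.6 and 20.6 CPM to 45.0 and 42.3 CPM, and Fanci, of the Fanconi anemia pathway, from 20.6 and 21.8 CPM to 33.4 and 38.1 CPM. The lower member was Chek2, a checkpoint kinase, with 30.6 and 31.1 CPM in WT and 23.5 and 25.1 CPM in Mir182ΔM/ΔM. Without the block 29 replication genes and 8 recombination genes were called higher.

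The genes that make nucleotides held some of the largest changes among the proliferation lists. In the list of purine, pyrimidine and one-carbon synthesis, 17 of 28 were higher, 3 lower and 8 not called (10 higher without the block). Dck, the kinase that salvages deoxynucleosides, read 83.8 and 84.8 CPM in WT and 401 and 421 CPM in Mir182ΔM/ΔM, 4.83-fold on the CPM + 1 scale (2.27 ± 0.04, limma adjusted p = 3.5e-05). Prps2, which makes the ribose donor of both purines and pyrimidines, read 53.4 and 51.0 CPM and 124 and 118 CPM, and Adss, of adenine nucleotide synthesis, read 224 and 199 CPM and 399.7 and 368 CPM. The salvage gene thus changed more than either synthesis gene. Shmt1, the cytosolic enzyme that passes carbon from serine to folate, was lower, with 24.7 and 26.9 CPM in WT and 17.3 and 20.9 CPM in Mir182ΔM/ΔM. Umps, which completes pyrimidine synthesis, was lower as well (-0.32 ± 0.053). The fold changes of Dck and Prps2 were larger than that of any replication or mitosis gene, the largest of which was 0.88 in log2.

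Promoters are shown from 4 lists in which a known short motif was more frequent than among all genes tested, chosen after the shares were seen. The mitosis, replication and complex III and IV lists each moved mostly 1 way, and the amino acid list did not. The windows run from 250 bases before to 50 after the RefSeq start (GRCm38.p6), both strands were searched, and 8798 of the genes tested had 11225 such windows. The cell cycle homology region TTTGAA, found in mitotic genes, was in 75.6% of the 41 windows of the mitosis list and in 12% of the windows of all genes tested. CCAAT, the box bound by NF-Y, was in 75.6% against 37.8%, but it was also frequent in lists that moved otherwise, at 88.9% in the unfolded protein response, 72.7% in cholesterol synthesis and 70% in the TCA cycle. An E2F site, TTTCCCGC or TTTGGCGC, was in 30.8% of the 52 replication windows and in 3.01% of all. GCATGCGC, part of the site of nuclear respiratory factor 1, was in 4 of the 14 windows of respiratory complexes III and IV (28.6%) and in 5.42% of all. It was in 9.09% of complex I windows, and in 14.6% and 11.5% of those of the mitosis and replication lists, which moved up. TCAAGGTCA, the estrogen-related receptor element, was in 0 windows of complex I and of complexes III and IV, 3.33% of TCA cycle windows, 6.25% of ATP synthase windows and 0.285% of all. The amino acid response element TTGCATCA was in 23.1% of the 26 windows of the amino acid list and in 0.641% of all. In each of these 4 lists, the window of the member with the largest change in the direction of most calls that held the motif is printed, with the motif in capitals. A match is a description of the letters in the window, not of a bound site. Spc25 (minus strand, chr2:69206164-69206463) holds CCAAT 55 and 23 bases before its start and TTTGAA from base 25 after it. E2f7 (plus strand, chr10:110745189-110745488), a repressor of the E2F family that read 21.3 and 16.8 CPM in WT and 31.9 and 27.8 CPM in Mir182ΔM/ΔM, holds the E2F letters on the opposite strand, 198 bases before its start. Uqcrc1 (plus strand, chr9:108936398-108936697), a core subunit of complex III that read 307 and 354 CPM and 176 and 191 CPM, holds the respiratory factor letters on both strands, overlapping, from bases 31 and 33 after its start. Chac1 (plus strand, chr2:119350992-119351291), which degrades glutathione and read 4.07 and 3.81 CPM and 0.920 and 0.472 CPM, holds the amino acid response element 193 bases before its start.
Spc25: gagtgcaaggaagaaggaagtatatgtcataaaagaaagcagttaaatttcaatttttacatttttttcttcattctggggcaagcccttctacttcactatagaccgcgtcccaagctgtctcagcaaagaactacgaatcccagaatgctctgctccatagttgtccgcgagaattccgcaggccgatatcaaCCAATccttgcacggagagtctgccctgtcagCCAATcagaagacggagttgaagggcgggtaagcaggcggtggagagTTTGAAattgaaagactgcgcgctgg
E2f7: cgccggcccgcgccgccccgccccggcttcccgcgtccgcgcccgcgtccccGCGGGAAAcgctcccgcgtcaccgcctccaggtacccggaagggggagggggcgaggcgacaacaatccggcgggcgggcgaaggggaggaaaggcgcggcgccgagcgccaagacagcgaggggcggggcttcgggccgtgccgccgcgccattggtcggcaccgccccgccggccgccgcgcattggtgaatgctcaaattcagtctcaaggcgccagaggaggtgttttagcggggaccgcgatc
Uqcrc1: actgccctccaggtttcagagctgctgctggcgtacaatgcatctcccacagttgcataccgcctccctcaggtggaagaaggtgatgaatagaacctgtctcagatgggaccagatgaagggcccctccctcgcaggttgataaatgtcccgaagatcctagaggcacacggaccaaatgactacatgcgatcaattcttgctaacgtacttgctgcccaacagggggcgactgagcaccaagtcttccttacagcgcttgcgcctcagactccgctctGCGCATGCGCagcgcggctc
Chac1: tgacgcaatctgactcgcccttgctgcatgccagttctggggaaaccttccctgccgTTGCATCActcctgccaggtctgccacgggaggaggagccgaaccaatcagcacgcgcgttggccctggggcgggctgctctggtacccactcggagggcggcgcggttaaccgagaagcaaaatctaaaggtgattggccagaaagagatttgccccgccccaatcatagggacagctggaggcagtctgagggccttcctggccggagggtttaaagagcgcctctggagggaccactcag

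The cyclins that open the cell cycle and the inhibitors that hold it back did not share a direction. The 5 D and E cyclins were all higher in Mir182ΔM/ΔM. Ccnd1 changed most, from 374 and 360.0 CPM in WT to 1179 and 1095 CPM in Mir182ΔM/ΔM (1.63 ± 0.035, limma adjusted p = 1.1e-04). It was also the most abundant of the 5 per length, at 98.5 RPKM in WT and 311 RPKM in Mir182ΔM/ΔM in replicate 1, the replicate whose files give CPM divided by the gene's length in kilobases (RPKM). Ccne1 read 19.3 and 18.4 CPM in WT and 33.4 and 32.3 CPM in Mir182ΔM/ΔM, Ccne2 46.7 and 32.6 CPM and 69.5 and 59.8 CPM, and Ccnd3 52.2 and 57.1 CPM and 70.2 and 71.4 CPM. Ccnd2 was low after RANKL, at 1.76 and 1.73 CPM in WT and 3.19 and 3.23 CPM in Mir182ΔM/ΔM. None of the 5 overlapped between the groups. How many of all genes tested did not overlap was not counted, so nothing particular to the cyclins is read from this.

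Among the Cdk inhibitors, Cdkn1a (p21), Cdkn2a, Cdkn2c and Cdkn2d were higher and Cdkn1b (p27) and Cdkn2b lower, while Cdkn1c, with 2.71 and 2.30 CPM in WT and 2.82 and 1.34 CPM in Mir182ΔM/ΔM, was not called. Cdkn1a read 221 and 235 CPM in WT and 402 and 397 CPM in Mir182ΔM/ΔM (0.81 ± 0.037, limma adjusted p = 8.9e-04). Cdkn1b read 41.2 and 36.9 CPM in WT and 22.4 and 18.5 CPM in Mir182ΔM/ΔM (-0.91 ± 0.069, limma adjusted p = 0.0035). The p21 and p27 genes thus moved in opposite directions. Cdkn2d was not called without the block (limma adjusted p = 0.36). In the wider list of D cyclins, Cdk inhibitors and p53 targets, 15 of 31 were higher and 10 lower (18 and 6 with TMM factors). Mdm2, the p53 target that degrades p53, rose from 177 and 167 CPM to 359 and 347 CPM, and Trp53inp1, another p53 target, fell from 84.8 and 74.6 CPM to 31.8 and 27.4 CPM. Both were named for their large changes in opposite directions, and the p53 targets were not counted apart from the rest of the list.

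**Figure D2:**
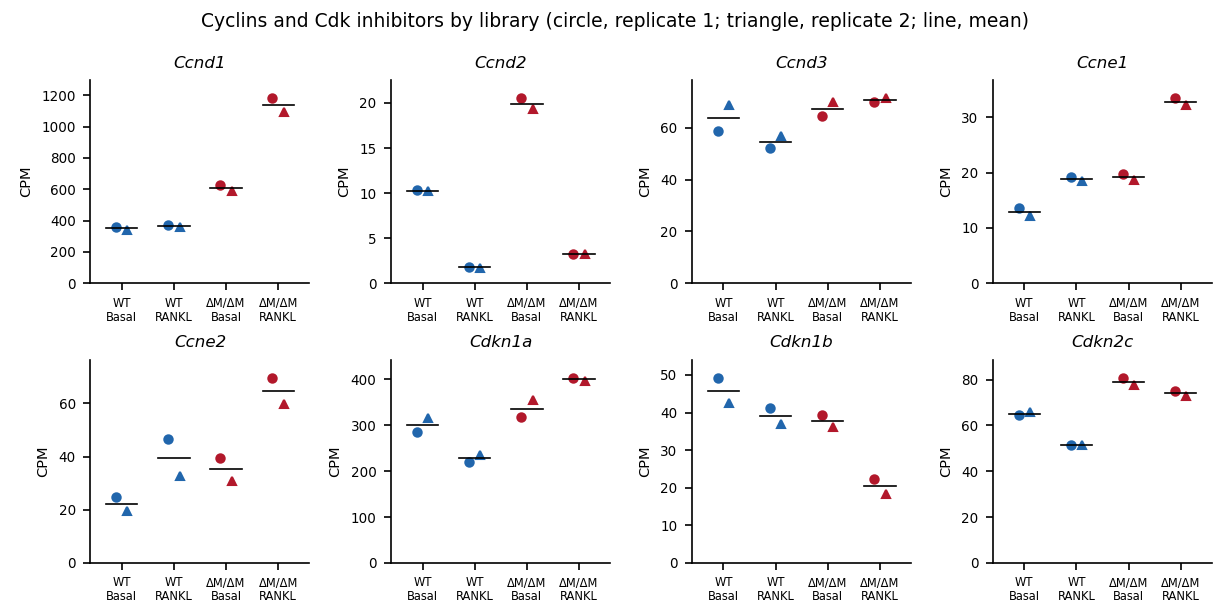
CPM of 5 cyclins and 3 Cdk inhibitors in the 8 libraries (each panel with its own linear axis from 0, circles replicate 1, triangles replicate 2, lines group means). Ccnd1 in Mir182ΔM/ΔM RANKL lies above every other library, and Cdkn1b in Mir182ΔM/ΔM RANKL below every other library.

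The machinery that makes ribosomes and the ribosomal proteins themselves differed in direction. Of 27 Myc-related and ribosome biogenesis genes, 17 were higher and 2 lower, none by 1.5-fold, and 2 were called higher without the block. Polr1a, the catalytic subunit of RNA polymerase I, read 98.6 and 94.1 CPM in WT and 122 and 129 CPM in Mir182ΔM/ΔM. Myc itself read 212 and 164 CPM and 218 and 159.6 CPM, and its log2 fold change of 0.0014 ± 0.04 was not called (0.15 and called with TMM factors). Bop1, of 60S assembly, went from -0.14 on CPM to 0.0085 with TMM factors. Of 75 cytosolic ribosomal protein genes, 74 were lower and 1 (Rps2) higher, with a median of -0.47 (-0.31 with TMM factors, 35 lower without the block). Rps7 read 264 and 385 CPM in WT and 149.8 and 209 CPM in Mir182ΔM/ΔM, and Rpl23a read 96.9 and 94.7 CPM and 57.6 and 57.5 CPM. Rps7 also differed between the replicate numbers within each group, whereas Rpl23a did not. Ribosomal protein genes have many near-identical pseudogene copies, so how the authors' counting split those reads makes their levels uncertain. The 45S ribosomal RNA precursor row, Rn45s, followed the replicate number, at 1009 and 15202 CPM in WT and 908 and 9778 CPM in Mir182ΔM/ΔM.

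Proteasome genes moved slightly upward. Of 31 constitutive subunits, 20 were higher and 3 lower, none by 1.5-fold, and 1 remained called as higher without the block. Psmd8, a lid subunit, read 293 and 270.2 CPM in WT and 362 and 325 CPM in Mir182ΔM/ΔM (0.29 ± 0.037). Psmb1, a core subunit, had a log2 fold change of -0.12 on CPM and 0.032 with TMM factors.

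**Figure D3:**
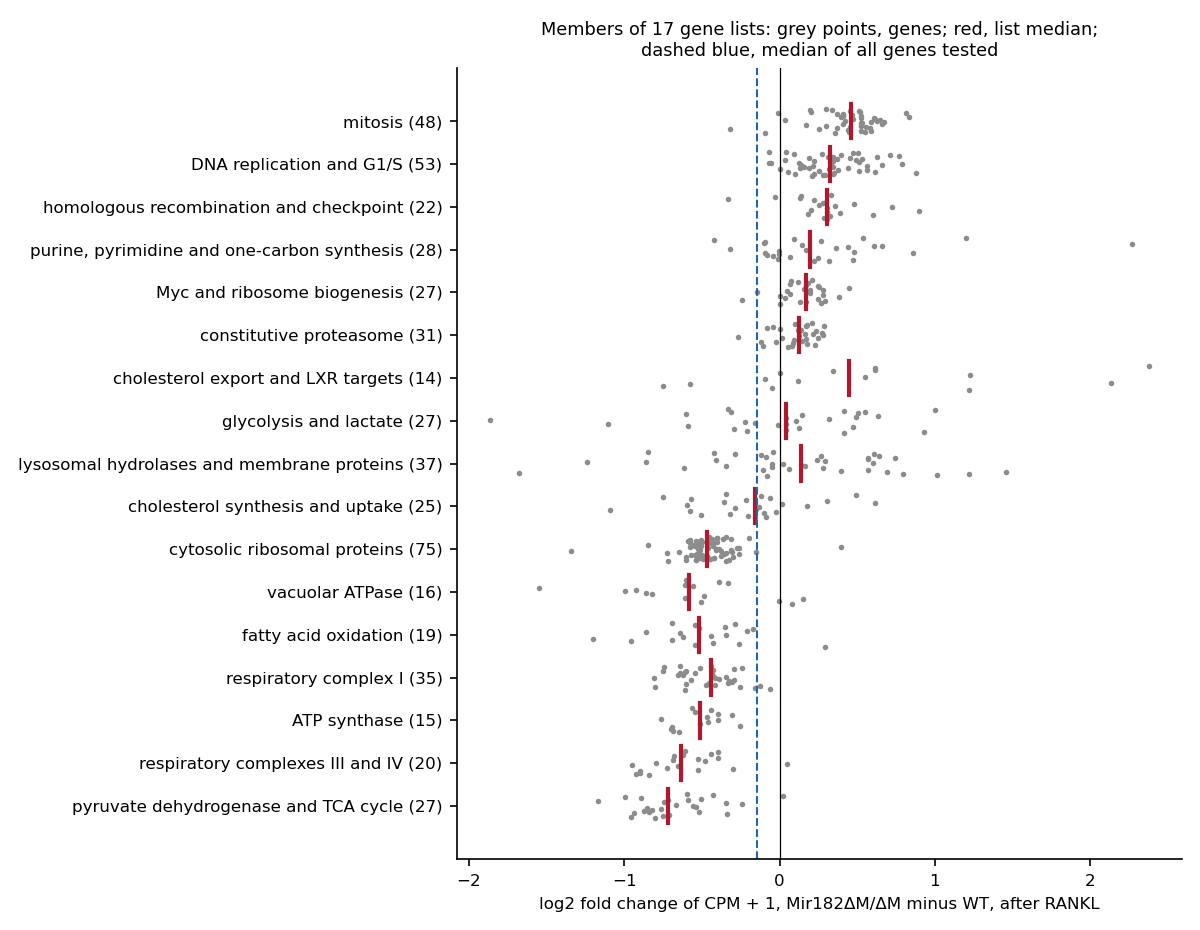
log2 fold change of CPM + 1 (Mir182ΔM/ΔM minus WT after RANKL) for the tested members of 17 lists, 1 grey point per gene, with the list median in red and the median of all genes, -0.14, as a dashed blue line. The mitochondrial lists and the ribosomal proteins lie to the left of that line, and the mitosis, replication and recombination lists to its right.

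The mitochondrial energy genes were lower in Mir182ΔM/ΔM after RANKL, and no member of the TCA cycle, complex I, complex III and IV or ATP synthase lists was called higher on CPM (1 TCA cycle gene and 1 gene of complexes III and IV were with TMM factors). For pyruvate dehydrogenase and the tricarboxylic acid (TCA) cycle, which oxidise pyruvate, 26 of 27 genes were lower, 18 by at least 1.5-fold, and 0 higher, with a median of -0.72 (-0.56 with TMM factors). Sdhb, the iron-sulfur subunit of succinate dehydrogenase, read 205 and 229.6 CPM in WT and 90.2 and 103 CPM in Mir182ΔM/ΔM (-1.17 ± 0.042, limma adjusted p = 6.7e-04). Mdh1, the cytosolic malate dehydrogenase, read 318 and 400.3 CPM and 155 and 206 CPM, and Pdhb, of pyruvate dehydrogenase, 157 and 169.6 CPM and 81.5 and 85.8 CPM. For all 3 genes both Mir182ΔM/ΔM libraries lay below both WT libraries, which their choice as the largest decreases makes likely. With RANKL the Mir182ΔM/ΔM libraries lay near the Basal libraries of both genotypes for Sdhb, which read 91.8 and 106 CPM in WT Basal and 89.9 and 106 CPM in Mir182ΔM/ΔM Basal.

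Genes of the respiratory chain followed. In complex I, which takes electrons from NADH, 34 of 35 genes were lower and 0 higher (median -0.44, or -0.29 with TMM factors, 16 lower without the block). In complexes III and IV, which pass electrons on to oxygen, 19 of 20 were lower and 0 higher (median -0.64, or -0.49 with TMM factors). Cyc1, cytochrome c1, read 182 and 264 CPM in WT and 95.4 and 134 CPM in Mir182ΔM/ΔM (-0.95 ± 0.042, limma adjusted p = 0.021). Uqcrc2, a core protein of complex III, read 298 and 329 CPM and 153 and 176 CPM. Both genes fell by more than the spread within either group, which their choice as the largest decreases makes likely. All 15 ATP synthase genes were lower (median -0.51), among them Atp5c1, the rotor's central stalk, with 348 and 321 CPM in WT and 212 and 199.7 CPM in Mir182ΔM/ΔM.

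Ppargc1b, the coactivator PGC-1β that drives mitochondrial biogenesis in osteoclasts, read 54.6 and 49.0 CPM in WT and 13.7 and 12.4 CPM in Mir182ΔM/ΔM, 3.76-fold lower on the CPM + 1 scale (-1.91 ± 0.071, limma adjusted p = 1.7e-04). Its partner Esrra, the estrogen-related receptor α, read 64.8 and 81.7 CPM and 39.5 and 42.1 CPM. Both stand among 15 lower genes of 18 in the mitochondrial biogenesis list. That list as a whole moved less (median -0.25), with TMM factors 7 were lower and 1 higher, and without the block 4 were lower, so its count depends on the scaling and on the block. Ppargc1b was low without RANKL in both genotypes (4.25 and 3.65 CPM in WT and 5.48 and 5.56 CPM in Mir182ΔM/ΔM) and higher with RANKL in both, but less so in Mir182ΔM/ΔM.

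Genes of glycolysis, which splits glucose to pyruvate and lactate, were mixed on CPM: 12 of 27 were higher, 10 lower and 5 not called. With TMM factors 15 were higher and 6 lower, and the median was 0.044 on CPM and 0.19 with TMM factors. Ldha, the main lactate dehydrogenase, read 627 and 753 CPM in WT and 918 and 1108 CPM in Mir182ΔM/ΔM (0.55 ± 0.034, limma adjusted p = 0.022), and Slc16a3, the lactate exporter MCT4, read 62.6 and 77.0 CPM and 135 and 146 CPM (1.0 ± 0.046, limma adjusted p = 0.002). The glucose transporter gene Slc2a3 rose from 7.58 and 9.39 CPM to 15.2 and 18.9 CPM. Aldoc, an aldolase isoform, fell most, from 62.7 and 63.2 CPM to 17.3 and 15.9 CPM (-1.86 ± 0.065, limma adjusted p = 1.2e-04). The 3 hexokinases, which trap glucose in the cell, differed by little: Hk1 had a log2 fold change of -0.21 ± 0.039, Hk2 of 0.043 ± 0.058 (0.19 and called with TMM factors) and Hk3 of -0.29 ± 0.042, and none was called without the block. Per length, Hk1 was the most abundant in WT RANKL replicate 1 at 56.1 RPKM, before Hk3 at 44.4 RPKM and Hk2 at 8.15 RPKM.

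The phosphofructokinase isoforms split. The liver type Pfkl was higher (84.0 and 108 CPM in WT, 119.9 and 147 CPM in Mir182ΔM/ΔM), the muscle type Pfkm lower (30.8 and 32.4 CPM in WT, 19.2 and 22.4 CPM in Mir182ΔM/ΔM), and the platelet type Pfkp was not called (-0.009 ± 0.045). Of the kinases that make fructose 2,6-bisphosphate, the activator of this step, Pfkfb2 fell from 113 and 119 CPM to 49.6 and 57.8 CPM, while Pfkfb3 (-0.16) and Pfkfb4 (-0.22) were called lower by little and not without the block. For the enolases, Eno3 was lower (-0.60 ± 0.1), Eno2 was not called, and Eno1 was listed at 0 in all libraries. Ldhb, the second lactate dehydrogenase, read 8.82 and 10.7 CPM in WT and 7.65 and 7.59 CPM in Mir182ΔM/ΔM, far below Ldha per length (6.76 against 325 RPKM in WT replicate 1).

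In the pentose phosphate pathway, which makes ribose and NADPH, 4 of 7 genes were higher and 1 lower. Taldo1, transaldolase, read 332 and 365 CPM in WT and 651 and 735 CPM in Mir182ΔM/ΔM (0.99 ± 0.035, limma adjusted p = 9.8e-04). The entry enzyme G6pdx changed less, from 334 and 308 CPM to 379.9 and 357 CPM, and was not called without the block. Pgls, the step after it, was lower (-0.40 ± 0.053).

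**Figure D4:**
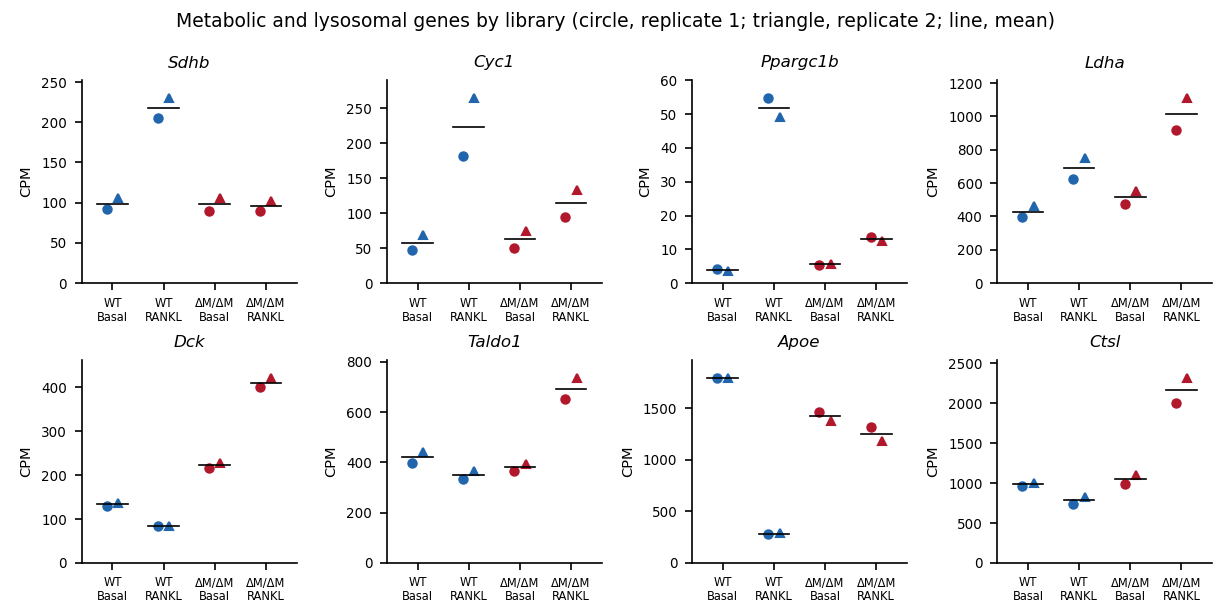
CPM of 8 genes in the 8 libraries (linear axes from 0, circles replicate 1, triangles replicate 2, lines group means). For Sdhb, Cyc1 and Ppargc1b the WT RANKL libraries stand highest, for Ldha, Dck, Taldo1 and Ctsl the Mir182ΔM/ΔM RANKL libraries do, and for Apoe the WT RANKL libraries stand lowest.

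Most genes for burning fat were lower, like those of the respiratory chain. Of 19 genes of fatty acid oxidation, 18 were lower and 1 higher (median -0.52, or -0.37 with TMM factors, 11 lower without the block). Acads and Acadl, the short-chain and long-chain acyl-CoA dehydrogenases, both fell. Acads read 65.8 and 84.8 CPM in WT and 29.4 and 34.6 CPM in Mir182ΔM/ΔM (-1.20 ± 0.057, limma adjusted p = 0.0022), and Acadl read 104 and 94.7 CPM and 52.5 and 49.1 CPM. The higher member was Cpt1a, which brings fatty acids into the mitochondrion, with 108 and 109.6 CPM in WT and 132 and 135 CPM in Mir182ΔM/ΔM (0.29 ± 0.044, limma adjusted p = 0.028).

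In the list of cholesterol export and targets of the liver X receptor (LXR), 8 of 14 were higher and 2 lower, 6 and 1 by at least 1.5-fold. Pparg, the nuclear receptor of lipid storage, read 9.30 and 7.74 CPM in WT and 50.5 and 46.3 CPM in Mir182ΔM/ΔM (2.38 ± 0.077, limma adjusted p = 1.2e-04). Apoe, which carries exported cholesterol, read 282 and 286 CPM and 1317 and 1184 CPM (2.13 ± 0.035, limma adjusted p = 6.1e-05). Lpl, lipoprotein lipase, rose from 1689.5 and 1612 CPM to 3825 and 3894 CPM. The 2 lower members, Abca1 and Abcg1, are the cholesterol exporters named by the list: Abca1 read 366 and 359.8 CPM in WT and 209 and 222 CPM in Mir182ΔM/ΔM, and Abcg1 300.4 and 275 CPM and 195 and 191 CPM. Both exporter genes were lower in each replicate, as the rule for named genes requires.

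Of 25 genes of cholesterol synthesis and uptake, 14 were lower and 4 higher (10 and 5 with TMM factors). Mvd, of the mevalonate pathway, fell from 38.6 and 40.1 CPM to 17.3 and 18.5 CPM. In fatty acid synthesis 12 of 18 were lower and 3 higher. The desaturase gene Scd2 read 289 and 275 CPM in WT and 92.6 and 92.1 CPM in Mir182ΔM/ΔM (-1.60 ± 0.042, limma adjusted p = 1.0e-04), and Lpin1, the phosphatidate phosphatase lipin 1, 40.4 and 38.4 CPM and 8.87 and 11.0 CPM. Both medians, -0.16 and -0.24, lie within 0.1 of the median of all genes, the shares called lower are near the 50.1% of all genes, and without the block 7 and 5 were called lower.

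In amino acid metabolism and the Atf4 response to amino acid shortage, 15 of 28 genes were lower and 9 higher (12 and 11 with TMM factors). The list median of -0.16 was close to the -0.14 of all genes, and the share called lower was near their 50.1%, so the list as a whole did not stand out. The stress genes Nupr1 and Ddit3, which encodes CHOP, were higher, Nupr1 with 14.9 and 12.9 CPM in WT and 44.9 and 38.0 CPM in Mir182ΔM/ΔM. The transaminase gene Gpt2 was lower (22.1 and 24.5 CPM in WT, 10.8 and 9.60 CPM in Mir182ΔM/ΔM), as was Slc1a5, a glutamine transporter (-0.59 ± 0.042). Of 18 genes of glutamine, arginine, polyamine and creatine metabolism, 6 were higher and 8 lower (8 and 4 with TMM factors, median -0.059 on CPM). Within it the steps of creatine differed: Gatm, which starts creatine synthesis, rose from 35.8 and 34.9 CPM to 174 and 164 CPM (2.22 ± 0.049, limma adjusted p = 4.6e-05). Ckb, the creatine kinase, fell from 438 and 572 CPM to 223 and 249.6 CPM (-1.08 ± 0.037, limma adjusted p = 0.0027), and the creatine transporter gene Slc6a8 from 189 and 194 CPM to 100.2 and 102 CPM. Odc1, the entry enzyme of polyamine synthesis, was higher by 0.30 in log2.

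Lysosomal hydrolases and the pump that acidifies the lysosome moved apart. Of 37 lysosomal hydrolases and membrane proteins, 19 were higher and 13 lower (25 and 9 with TMM factors), with a median of 0.14 (0.29 with TMM factors). Cathepsins L, C and B were higher: Ctsl read 744 and 826 CPM in WT and 2009 and 2314 CPM in Mir182ΔM/ΔM (1.46 ± 0.033, limma adjusted p = 3.5e-04). Ctsb read 4017 and 4174 CPM and 8063 and 8515 CPM, and Ctsc 273 and 248 CPM and 629.8 and 585 CPM. Cathepsin H was lower (61.1 and 64.0 CPM in WT and 19.5 and 18.1 CPM in Mir182ΔM/ΔM), and so was the sulfatase gene Arsb (-1.24 ± 0.039). Of 16 subunits of the vacuolar ATPase, the proton pump of lysosomes and of the osteoclast's ruffled border, 13 were lower and 2 higher (median -0.58, or -0.43 with TMM factors). Atp6v1d read 309 and 276 CPM in WT and 104 and 94.4 CPM in Mir182ΔM/ΔM (-1.55 ± 0.041, limma adjusted p = 2.2e-04), and Atp6v1b2 1141 and 1344 CPM and 563 and 684 CPM. The higher subunits, Atp6v0a2 and the accessory subunit Atp6ap1, were not called without the block. Atp6v0d2, the osteoclast isoform counted with the osteoclast genes, read 718 and 553 CPM in WT and 118 and 95.7 CPM in Mir182ΔM/ΔM.

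The stress lists had no direction that held under both scalings. In the unfolded protein response 12 of 21 genes were lower and 3 higher on CPM, and 7 lower and 8 higher with TMM factors. The 3 largest changes were decreases. Herpud1, of the degradation of proteins from the endoplasmic reticulum, read 78.9 and 78.0 CPM in WT and 42.7 and 38.7 CPM in Mir182ΔM/ΔM. Xbp1, the main transcription factor of the response, read 186 and 188 CPM in WT and 110.0 and 111 CPM in Mir182ΔM/ΔM, and Edem1, which sends misfolded glycoproteins to degradation, 474 and 477 CPM and 251 and 267 CPM. Of 17 hypoxia targets 5 were higher and 7 lower, with Hif1a itself at 139 and 111 CPM in WT and 185 and 149.9 CPM in Mir182ΔM/ΔM and not called without the block. Among 19 genes of the Nrf2 response 9 were higher and 9 lower. Nqo1, a quinone reductase, rose from 10.5 and 11.4 CPM to 21.2 and 24.6 CPM, Keap1, the inhibitor of Nrf2, from 72.4 and 74.6 CPM to 126 and 119.8 CPM, and catalase (Cat) fell from 394 and 339 CPM to 295 and 262 CPM. In iron handling 4 of 13 were higher and 7 lower. Slc11a1, which exports iron from the phagosome, rose from 188 and 197 CPM to 312 and 305 CPM. Ncoa4, which delivers ferritin to the lysosome, fell from 91.0 and 70.7 CPM to 38.9 and 29.7 CPM, and Slc40a1, the iron exporter ferroportin, from 38.2 and 40.7 CPM to 18.6 and 24.4 CPM.

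Genes that mark macrophages were also mixed on CPM, with 12 of 24 higher and 10 lower (12 and 6 with TMM factors). Their median was 0.12, or 0.27 with TMM factors. Fcgr1, the high-affinity Fc receptor CD64, read 18.5 and 19.8 CPM in WT and 148 and 167 CPM in Mir182ΔM/ΔM (2.97 ± 0.055, limma adjusted p = 3.5e-05), and the complement gene C1qa 337 and 309 CPM and 835 and 741 CPM. The chemokine receptor gene Ccr2, a mark of inflammatory monocytes, fell from 60.1 and 56.7 CPM to 7.36 and 7.59 CPM (-2.81 ± 0.076, limma adjusted p = 3.7e-05). Csf1r, the receptor for M-CSF, fell from 2032 and 2169 CPM to 1444 and 1512 CPM. Csf1r and C1qa, which define macrophages, were abundant in all 4 libraries.

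In the list of extracellular matrix and proteases 11 of 16 genes were higher and 4 lower. Plaur, the urokinase receptor, rose from 27.2 and 28.4 CPM to 108 and 94.8 CPM. Fibronectin (Fn1) rose from 9.62 and 12.3 CPM to 41.1 and 43.4 CPM. Mmp14, the membrane-bound collagenase, moved the other way, from 269 and 304 CPM to 30.1 and 32.2 CPM (-3.16 ± 0.047, limma adjusted p = 3.1e-05). Of 18 calcium and ion transport genes 5 were higher and 10 lower (6 and 5 with TMM factors). Their median of -0.17 was close to the -0.14 of all genes, and the share called lower was near the 50.1% of all genes. Atp2a3, a calcium pump of the endoplasmic reticulum, fell from 43.3 and 45.2 CPM to 8.84 and 9.05 CPM, and Itpr1, the channel that releases calcium from it, rose from 31.4 and 33.5 CPM to 74.2 and 76.9 CPM. Slc4a2, the chloride and bicarbonate exchanger that osteoclasts use to balance acid secretion, fell from 269 and 322 CPM to 146 and 169 CPM.

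For scale, all 55 interferon-stimulated genes tested were higher, with a median of 2.83, and 13 of 15 osteoclast genes were lower, with a median of -1.89. Acp5, the phosphatase TRAP that marks osteoclasts, read 2195 and 2466 CPM in WT and 509.8 and 553 CPM in Mir182ΔM/ΔM. The exception among the osteoclast genes was Itgb3, the integrin β3 chain, which read 58.1 and 59.8 CPM in WT and 83.7 and 82.6 CPM in Mir182ΔM/ΔM. The medians of the mitochondrial lists were thus smaller in size than that of the osteoclast genes, and that of the mitosis list smaller than that of the interferon-stimulated genes.

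Outside those 2 lists, the largest increase in the whole table belonged to Ppp2r1b, a scaffold subunit of protein phosphatase 2A (chr9:50845301-50894229, mm10). It read 45.7 and 50.4 CPM in WT and 1470.1 and 1651 CPM in Mir182ΔM/ΔM, 31.8-fold on the CPM + 1 scale (4.99 ± 0.038, limma adjusted p = 1.1e-05), while both Basal groups lay between 48.1 and 55.5 CPM. Hal, histidine ammonia-lyase, was next to absent in WT RANKL at 0.758 and 0.972 CPM and read 29.7 and 31.8 CPM in Mir182ΔM/ΔM RANKL, but 169.6 and 172 CPM in WT Basal and 242 and 257 CPM in Mir182ΔM/ΔM Basal. The other 4 of the 6 largest increases were Gm4951, F830016B08Rik, Pydc4 and Pydc3, with log2 fold changes from 3.86 to 4.33. These 4 belong to families of interferon-inducible genes, the GTPases and the PYHIN proteins, although the interferon list does not hold them. Among the decreases Lyz2, described above, was largest. Padi2, which turns arginine in proteins into citrulline, fell from 176 and 162 CPM to 11.2 and 9.33 CPM (-3.92 ± 0.059, limma adjusted p = 2.8e-05). Adck3, a mitochondrial kinase of coenzyme Q synthesis, fell from 259 and 292 CPM to 17.8 and 21.0 CPM, and Cyp2s1, a cytochrome P450, from 106 and 96.9 CPM to 6.01 and 5.51 CPM. Sema3d and Armcx2 completed the 6 largest decreases, with log2 fold changes of -3.76 and -3.68, and each read under 1 CPM in both Mir182ΔM/ΔM libraries.

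Without RANKL the same genotypes were compared in the 4 Basal libraries, in which Lyz2 and Ifi202b were at similar levels in both groups. There 2315 of 11044 genes were higher in Mir182ΔM/ΔM (21.0%) and 1697 lower (15.4%), and without the block 73 and 31. The proliferation lists were higher before RANKL as well: 45 of 48 mitosis genes, 49 of 53 replication genes and 22 of 22 recombination genes were called higher and none lower, with medians of 0.30, 0.42 and 0.48. Of the mitosis genes called higher after RANKL, 42 were also called higher without it, and of the replication genes 42. Ccnd1 read 361 and 337 CPM in WT Basal and 627 and 588 CPM in Mir182ΔM/ΔM Basal. The mitochondrial lists had no such Basal difference: the TCA cycle list had 6 of 27 higher and 3 lower, complex I 2 of 35 higher and 5 lower, and ATP synthase 1 of 15 higher and 0 lower, with medians of 0.049, -0.0042 and -0.026. Ribosomal protein genes were lower in both settings, 59 of 75 without RANKL, at a median of -0.14.

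The difference between the genotype effects with and without RANKL was tested directly as an interaction in all 8 libraries. It passed for 6878 of 11673 genes (58.9%), with a median over all genes of -0.15. Of these, 1885 had a more positive effect with RANKL and 4993 a more negative effect. In the TCA cycle list 25 of 27 genes had a more negative effect with RANKL and 0 a more positive effect (median -0.76), and in ATP synthase 15 of 15 and 0 (median -0.54). In the mitosis list 25 of 48 had a more positive effect with RANKL and 4 a more negative effect (median 0.16). In the replication list 7 were more positive and 20 more negative of 53 (median -0.1), close to the balance and the median of all genes. For single genes, the interaction was -1.15 in log2 for Sdhb, 0.83 for Ccnd1, 1.54 for Dck and 0.27 for Pcna, all past the threshold. These genes were named for large changes after RANKL, which makes passing likely. Without the block 2875 genes had an interaction.

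**Figure D5:**
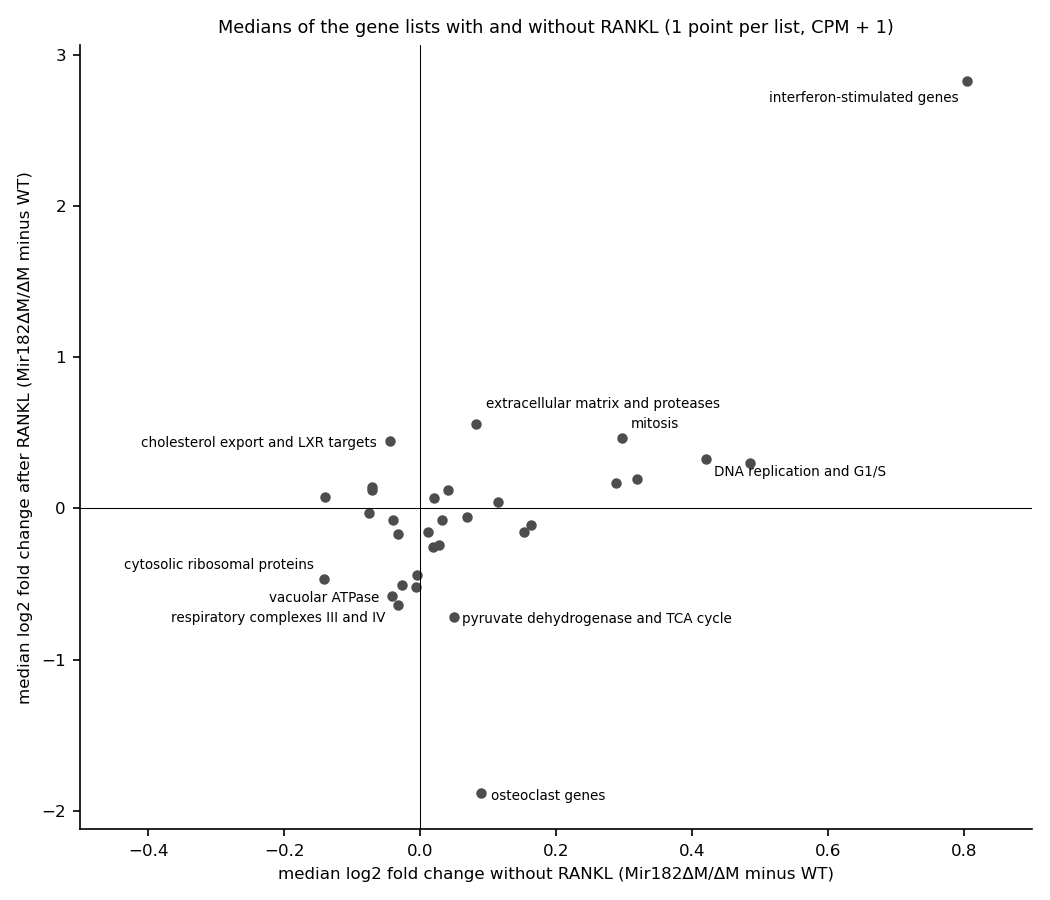
Median log2 fold change (Mir182ΔM/ΔM minus WT) of each list with at least 7 tested members, without RANKL on the x axis and after RANKL on the y axis, 1 point per list. Mitosis and replication lie above 0 on both axes, while the TCA cycle and respiratory lists lie near 0 on the x axis and below 0 on the y axis.

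Markers of other marrow cells were low in the 4 RANKL libraries. Summed over each list, T cell markers read 14.7 to 17.6 CPM, most of it Cd4, and B cell markers at most 3.71 CPM. NK cell, erythroid and mast cell lists summed to at most 0.279 CPM, and dendritic cell markers to at most 4.25 CPM. Neutrophil markers summed to 22.2 and 21.9 CPM in WT and 7.19 and 7.36 CPM in Mir182ΔM/ΔM, with 5 of 8 tested and all 5 lower. The endothelial list was higher in Mir182ΔM/ΔM, but nearly all of its sum was Kdr (23.9 and 25.8 CPM in WT and 101 and 101 CPM in Mir182ΔM/ΔM), while Cdh5 and Pecam1, which define endothelium, stayed at or under 4.14 CPM. Stromal markers followed the replicate number, at 17.2 and 37.1 CPM in WT and 16.5 and 32.4 CPM in Mir182ΔM/ΔM. Of 32 replication-dependent histone genes only 2 passed the filter and neither was called. The part of these markers in the results above was not tested.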

How the data were processed

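Bone marrow macrophage RNA was sequenced on an Illumina instrument (12 libraries, 6 groups of 2), and the 4 RANKL libraries of WT and Mir182ΔM/ΔM were compared here. For the 8 loss-of-function libraries the authors deposited CPM (reads on a gene per 1000000 reads on genes, with no further scaling), and replicate 1 files also hold RPKM, which the authors computed from the gene length. The 4 Control and Mir182mTg files hold deposited counts of reads, used here only for levels of check genes, as CPM. The submitters' processing notes name mm10 and TopHat and Cufflinks for replicate 1, and HISAT2, HTSeq and edgeR for replicate 2. Versions are not given in the sources used here. The labels call replicate 1 polyA RNA and replicate 2 total RNA, while the study's methods describe poly-A selection. How reads from near-identical genes were assigned can change the levels of single genes. Of 24421 rows, 27 whose names had turned into dates were left out.

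The CPM were whole multiples of 1 read in 100% of values (tolerance 0.01 read), which gave the depths printed. Counting error is thus small for genes above 10 CPM, and biological spread rests on 2 samples a group. Genes that reached 1 CPM in 2 or more of these libraries were tested in limma 3.58.1 (R 4.3.3) on log2(CPM + 1), with the replicate number as a block, a mean-variance trend and Benjamini-Hochberg adjustment (threshold 0.05). Fold changes on this scale understate the change of low genes. The Basal libraries were fitted likewise, and the interaction in 1 fit of the 8 libraries. The block was used because the labels tie the replicate number to the RNA and processing, and because replicate 2 minus replicate 1 correlated between groups at 0.693 to 0.758 across 11673 genes, which are not independent replicates. The study calls the replicates independent, and p-values otherwise measure only the spread between these samples. Alternatives were TMM and upper-quartile factors, a pseudocount of 0.1, no filter and a stricter filter, no block, 1 fit of 8 samples, each library left out in turn, and edgeR 4.0.16 and DESeq2 1.42.0 on the recovered reads. The fit was also run on simulated reads with far fewer changed genes and little spread between replicates. That run therefore does not measure the error of the fit on these data.

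The 42 gene lists, the comparison and the rule for named genes were chosen with earlier results of these data known. Named were 12 check genes, up to 3 genes per list with the largest change in the direction of more calls and up to 2 in the other (at least 10 CPM in the higher group, same sign in both replicates), the 6 largest changes in each direction outside the interferon and osteoclast lists, and members of 6 small families. Uqcrc1, E2f7, Chac1 and Kdr were named outside this rule, after their values were seen. Some genes that the rule named are not reported here. Promoters and miRNA sequences are from RefSeq (GRCm38.p6), gene coordinates from GENCODE annotation of GRCm38, the same assembly as mm10.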

Additional observations from a re-analysis of the deposited data

Results flagged for a closer look

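The interaction between genotype and RANKL passed the threshold (limma on the 8 libraries with the replicate block, adjusted p under 0.05) for 164 of the 180 named genes tested. The share over all genes was 58.9%. Most named genes were chosen for a large change after RANKL, which is part of the interaction, so a higher share among them was likely from the start. Only the 26 named genes called in opposite directions with and without RANKL are listed. How many of all genes were called in opposite directions was not counted. All rest on the WT RANKL libraries, which stand apart in Lyz2 and Ifi202b, so a difference between mice or cultures cannot be told apart from the interaction. Values are interactions in log2, the genotype effect with RANKL minus that without it, on CPM. Other scalings of the interaction were not run. The opposite directions depend on the replicate block: without it 22 of the 26 were called after RANKL (not Hk3, Pfkfb3, G6pdx and Bop1), 21 had an interaction and 0 were called without RANKL (8 at an unadjusted p under 0.05), where limma called 73 genes higher and 31 lower in all.

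Most of the 26 were lower in Mir182ΔM/ΔM with RANKL and higher without it. Among energy genes these were Ppargc1b (-2.31), Acadl (-1.17), Cyc1 (-1.07), Ckb (-1.19), Hk3 (-0.41) and Pfkfb3 (-0.35). Acadl, for example, read 104 and 94.7 CPM in WT RANKL and 52.5 and 49.1 CPM in Mir182ΔM/ΔM RANKL, but 69.3 and 62.9 CPM in WT Basal and 80.1 and 73.6 CPM in Mir182ΔM/ΔM Basal. Among lipid, lysosome and protein quality genes they were Scd2 (-1.70), Abcg1 (-0.78), Arsb (-1.42), Atp6v1b2 (-1.06), Ctsk (-2.28) and Edem1 (-1.02). Among genes of growth and redox balance they were Shmt1 (-0.99), Umps (-0.66), Slc1a5 (-0.74), Gsr (-0.69), Bub1b (-0.57), Chek2 (-0.48) and Bop1 (-0.31). Bop1 is 1 of those whose direction after RANKL depends on the scaling.

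The others were higher in Mir182ΔM/ΔM with RANKL and lower without it: Ifi202b (6.35), Apoe (2.47), Taldo1 (1.13), Mgst1 (0.90), Slc11a1 (0.87), Rps2 (0.52) and G6pdx (0.40). Apoe read 1791 and 1790.0 CPM in WT Basal and 1467 and 1379.5 CPM in Mir182ΔM/ΔM Basal, and with RANKL it was the WT libraries that were low, at 282 and 286 CPM. Groups of 2 are too small for a test of single outlying libraries.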

How the results depend on the processing

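Leaving out the replicate block changed the most counts. Without the block 1459 genes were higher and 3115 lower after RANKL, 73 higher and 31 lower without RANKL, and 2875 had an interaction. In 30 of 32 lists with at least 7 tested members fewer were then called in the direction of most calls. They included 10 nucleotide synthesis, 1 proteasome, 2 ribosome biogenesis and 8 recombination genes higher, and 35 ribosomal protein, 16 complex I, 11 fatty acid oxidation, 4 mitochondrial biogenesis, 7 cholesterol synthesis and 5 fatty acid synthesis genes lower. It ended the call of 29 of the 180 named genes tested and turned the direction of none, and the cause was not tested. DESeq2 on the recovered reads called 2604 genes lower and 22 complex I genes lower. The counts of the other lists recomputed under all alternatives (mitosis, replication, glycolysis, TCA cycle, complexes III and IV, ATP synthase, LXR targets and vacuolar ATPase) stayed within 1.5 times under every alternative run. With each RANKL library left out in turn, in the fit of 8 libraries that lets the lone sample vary like the other groups, 2381 to 2480 genes were higher and 4774 to 5434 lower, and no named gene changed direction.

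Another scaling turned some small changes. The median of the unfolded protein response was 0.041 with TMM factors, 0.038 with edgeR and 0.042 with DESeq2, and that of the Nrf2 list 0.12 in all 3, against negative medians on CPM. Bop1 became 0.0085, 0.0015 and 0.0077, and Psmb1 0.032, 0.025 and 0.031, in the same order. Ccnb2 became 0.057 with TMM factors, 0.0099 with upper-quartile factors, 0.051 with edgeR and 0.057 with DESeq2. Pfkp, not called on CPM, became 0.14, 0.097 and 0.14 with TMM factors, upper-quartile factors and edgeR. Depth limits only the lowest genes, since 3 reads correspond to at most 0.12 CPM, and the spread between samples rests on 2 libraries a group.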
